A study of Mus musculus with 27 samples.

Results

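Ehmt2, Ehmt1 and Wiz encode 3 proteins of 1 histone methyltransferase complex, and the abundance of their ribosome-bound messenger RNA was followed in D1 and D2 neurons of the mouse striatum, with and without deletion of Ehmt2. The members were chosen by gene symbol alone: every probe set annotated to these 3 symbols was taken, which gave 5 probe sets, and the 3 genes stand among 18193 genes named by the array annotation. Ehmt2 had the probe sets 1460692_at and 1426888_at, Ehmt1 had 1454776_at, and Wiz had 1418202_a_at and 1430330_at. Of the 5 probe sets, 4 had a log2 level above 6 in 3 or more of the 27 arrays and entered the fit, while 1430330_at did not.

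Ehmt2 encodes G9a and Ehmt1 encodes its close relative GLP. The proteins pair through their catalytic SET domains and place mono- and dimethyl marks on a lysine of the histone H3 tail (H3K9), marks tied to gene repression in euchromatin. WIZ is a zinc finger protein that binds both enzymes, stabilises the complex and links it to the CtBP corepressors, and in neurons G9a and GLP are known for keeping genes of other cell types and of earlier stages silent.

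Translating ribosome affinity purification pulled down ribosomes that carry a GFP-tagged L10a protein, expressed under a Drd1 or a Drd2 transgene in the striatum, and their RNA was hybridised to Affymetrix Mouse Genome 430 2.0 arrays. All mice were males of 2 to 5 months, carried both floxed copies of G9a (G9a fl/fl) and the tag, and had a mixed background of C57BL/6 (the G9a line) and 129/Sv (the BAC line) with 2 generations of backcrossing to C57BL/6. D1 mutants (Drd1-TRAP with Drd1-Cre) gave 4 cocaine and 3 saline arrays, and D1 controls (Drd1-TRAP without Cre) gave 4 cocaine and 2 saline arrays. D2 mutants (Drd2-Cre, with the tag written as Drd-TRAP in the titles) gave 4 cocaine and 3 saline arrays, and D2 controls (Drd2-TRAP without Cre) gave 4 cocaine and 3 saline arrays. Cocaine was given at 20 mg/kg/day, saline in its place, and tissue was taken 2 h after the eighth injection. Genotype also stands for the Cre transgene, since no control carried it, and the Drd2 promoter is also active in cholinergic interneurons. The labels give between 2 and 4 mice for a genotype and drug, as many as the arrays, so p-values measure the spread between these mice. The array of D2 mutant cocaine replicate 4 is named a control in its source name but a mutant in its title, genotype and description, and it was kept as a mutant.

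RefSeq (GRCm38.p6) places Ehmt2 and Wiz on mouse chromosome 17 and Ehmt1 on chromosome 2. The promoter windows below run from 250 bases before to 50 bases after a listed transcript start and are shown because repeated cocaine, to which promoters with cAMP response or AP-1 elements are known to respond, was 1 of the compared conditions. Capitals mark the GC box (GGGCGG, or CCGCCC where it lies on the other strand) and the E-box (CACGTG). The Ehmt2 window lies at chr17:34898224-34898523 on the plus strand, the Ehmt1 window at chr2:24919560-24919859 on the minus strand and the Wiz window at chr17:32389357-32389656 on the minus strand.
Ehmt2 promoter: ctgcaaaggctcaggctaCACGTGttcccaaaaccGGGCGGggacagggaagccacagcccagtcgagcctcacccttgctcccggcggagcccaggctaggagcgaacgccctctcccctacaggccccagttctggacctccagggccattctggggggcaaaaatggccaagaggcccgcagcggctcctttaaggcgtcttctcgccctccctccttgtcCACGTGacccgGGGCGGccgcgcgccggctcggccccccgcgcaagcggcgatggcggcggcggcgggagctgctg
Ehmt1 promoter: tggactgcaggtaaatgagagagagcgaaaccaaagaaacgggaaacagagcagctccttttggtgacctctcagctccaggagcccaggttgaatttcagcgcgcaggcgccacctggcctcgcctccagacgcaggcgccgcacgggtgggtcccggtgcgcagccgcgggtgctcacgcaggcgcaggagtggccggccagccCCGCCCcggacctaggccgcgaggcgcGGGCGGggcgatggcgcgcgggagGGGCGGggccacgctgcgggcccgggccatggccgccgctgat
Wiz promoter: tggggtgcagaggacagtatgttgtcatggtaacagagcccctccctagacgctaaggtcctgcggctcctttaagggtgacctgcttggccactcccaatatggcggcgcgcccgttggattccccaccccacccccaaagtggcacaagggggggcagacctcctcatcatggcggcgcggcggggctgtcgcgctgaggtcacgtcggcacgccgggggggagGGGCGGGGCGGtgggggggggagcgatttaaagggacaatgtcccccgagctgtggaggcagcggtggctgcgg

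The Ehmt2 window held 28 CpG dinucleotides, the Ehmt1 window 34 and the Wiz window 22, more than 85.8%, 92.3% and 76.9% of all 32851 windows of this length. All 3 windows held the GC box, which binds Sp1-like factors, at 2 places in Ehmt2, 3 in Ehmt1 and 2 in Wiz that share a letter. It occurs in 35.7% of all windows. The E-box, bound by Myc- and USF-like factors, stood at 2 places in the Ehmt2 window and in neither of the others, and it occurs in 7.2% of all windows. On both strands, neither the cAMP response element TGACGTCA (1.8% of all windows) nor the AP-1 element TGANTCA (7.8%) was found in the 3 windows, which says only that these letters are not in them. The table holds 2 windows for Ehmt2 and 4 for Wiz, of which the one for the start farthest upstream is shown.

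Levels are the log2 values of robust multi-array averaging (RMA) that the authors deposited, and the number of arrays limits their precision. Array medians lay between 5.70 and 5.82, and the lowest correlation between arrays of a group was 0.968 to 0.993. The labelled cell types matched their defining markers: Drd1 averaged 12.62 in D1 mutants and 12.53 in D1 controls but 10.48 in D2 mutants and 9.94 in D2 controls, and Drd2 averaged 6.88 in D1 mutants and 6.76 in D1 controls but 12.77 in D2 mutants and 13.24 in D2 controls. In D2 neurons the summed levels of the cholinergic, oligodendrocyte and astrocyte marker lists had higher means in mutants than in controls. That of 4 cholinergic markers was 9.15 to 9.59 in mutants and 7.96 to 9.10 in controls. Of these markers 2 of 4 lay at or under 6 in mutants and 3 of 4 in controls, among them Chat at 4.51 and 4.48. The summed level of 3 oligodendrocyte markers was 11.37 to 11.77 in D2 mutants and 10.13 to 11.45 in D2 controls, and that of 5 astrocyte markers was 9.18 to 9.67 and 8.73 to 9.27, with 1 and 2 of them at or under 6 in each genotype. In D1 neurons the same lists lay at 6.60 to 6.88, 10.07 to 10.97 and 9.15 to 9.79 in mutants, and at 6.71 to 6.88, 10.19 to 10.78 and 9.16 to 9.83 in controls. Microglia and endothelial sums overlapped between genotypes in both neuron types. All these sums add linear signal, so the brightest marker leads each of them. In D2 mutants and D2 controls Lhx8 averaged 9.1 and 7.9, Mbp 11.5 and 10.93, and Gja1 8.5 and 7.87. Slc18a3, Slc5a7, Mog, Mag, Aqp4 and Slc1a3 were also higher in D2 mutants by mean. Chat differed little, and Gfap (6.16 and 6.25) and Aldh1l1 (5.63 and 5.65) were not higher. The choroid plexus transcript Ttr exceeded 9.5 in 3 arrays: D1 mutant saline replicate 3, D1 control cocaine replicate 3 and D2 control cocaine replicate 3. Kl, also on the choroid plexus list, was higher in mutants of both neuron types. It averaged 6.29 in D1 mutants and 4.71 in D1 controls, and 7.02 in D2 mutants and 4.79 in D2 controls. Folr1 of the same list was not higher in mutants (5.03 and 5.03 in D1, 4.87 and 4.97 in D2 neurons).

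Ehmt2 fell in mutants of both neuron types. Probe set 1460692_at read 8.62, 9.37, 9.23 and 8.72 in D1 mutants given cocaine and 8.03, 8.76 and 8.47 in D1 mutants given saline, against 9.95, 10.58, 10.34 and 10.23 in D1 controls given cocaine and 10.74 and 10.67 in D1 controls given saline. In D2 neurons it read 8.68, 9.38, 8.88 and 8.96 in mutants given cocaine and 9.02, 9.06 and 8.91 in mutants given saline, against 10.67, 10.69, 10.79 and 10.73 in controls given cocaine and 10.76, 10.93 and 11.02 in controls given saline. Every mutant array lay below every control array of its neuron type, with a gap of 0.57 in D1 and 1.28 in D2 neurons between the highest mutant and the lowest control. The D2 mutant cocaine array whose source name says control read 8.96, inside the range of the other D2 mutants.

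In D1 neurons Ehmt2 averaged 8.74 ± 0.45 in the 7 mutants and 10.42 ± 0.30 in the 6 controls (SD), and in D2 neurons 8.99 ± 0.21 in mutants and 10.80 ± 0.13 in controls (SD, n = 7 each). With both drugs weighted equally, the difference in level was -1.79 in D1 neurons (95% interval -2.07 to -1.50, 3.45-fold lower, limma, Benjamini-Hochberg adjusted p = 1.22e-09) and -1.82 in D2 neurons (95% interval -2.09 to -1.56, 3.54-fold lower, limma adjusted p = 1.21e-10). Of the 3 member probe sets that exceeded 6 in all 27 arrays, 1 passed an adjusted p of 0.05 in D1 neurons, where 3.04% of all 22530 probe sets passed and 0.857% fell. The same 1 passed in D2 neurons, where 9.19% passed and 2.89% fell. By p-value 1460692_at stood at place 40 of all tested probe sets in D1 and at place 62 in D2 neurons. The D2 effect minus the D1 effect was -0.04 (95% interval -0.42 to 0.35, limma adjusted p = 0.977). No member probe set above 6 in all arrays passed in this comparison, in which 0.71% of all probe sets did. The call held without each of the 27 arrays, with values of -1.87 to -1.69 in D1 and -1.89 to -1.77 in D2 neurons. In RNA pooled over many cells, fewer cells that hold Ehmt2 RNA and less of it per cell cannot be told apart. The summed level of 4 markers of all medium spiny neurons was 14.35 to 14.73 in D1 mutants and 14.41 to 14.78 in D1 controls. It was 14.73 to 14.87 in D2 mutants and 14.52 to 14.91 in D2 controls. These ranges overlapped between genotypes. RMA puts all arrays on a common scale, so such levels cannot show how many cells gave RNA. The summed cholinergic, oligodendrocyte and astrocyte levels overlapped between genotypes in D1 neurons. In D2 neurons the oligodendrocyte and astrocyte sums overlapped too, with higher means in mutants. The D2 cholinergic sums did not overlap, with 9.15 as the lowest in mutants and 9.10 as the highest in controls. The part of these cell types in the fall of Ehmt2 was not tested in either neuron type.

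The signal that remained in mutants was not uniform. Relative to the mean of controls given the same drug, mutants kept 31.9%, 53.5%, 48.4% and 34.0% of the linear Ehmt2 signal in D1 neurons after cocaine and 15.7%, 26.0% and 21.2% after saline. In D2 neurons they kept 24.3%, 39.7%, 28.1% and 29.5% after cocaine and 27.2%, 27.8% and 25.1% after saline. The D1 shares after cocaine all lay above those after saline, whereas the D2 shares overlapped. The D1 shares after saline rest on the mean of 2 control arrays. In D1 neurons the difference of the genotype effect between drugs did not pass (limma adjusted p = 0.221). Within a drug the difference in Ehmt2 level between mutants and controls was -1.29 after cocaine and -2.28 after saline in D1 neurons, and -1.74 after cocaine and -1.91 after saline in D2 neurons. All 4 of these passed (limma adjusted p between 6.4e-08 and 1.81e-05 after cocaine, 1.5e-07 and 2.76e-07 after saline), in comparisons that called 2.22% and 1.46% of all probe sets in D1 and 5.85% and 2.63% in D2 neurons. The labels do not give the floxed exons or the probes' place in the transcript, so whether 1460692_at lies in the deleted part, and whether its remaining signal is RNA without that part or RNA of cells without Cre, was not tested.

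**Figure D1:**
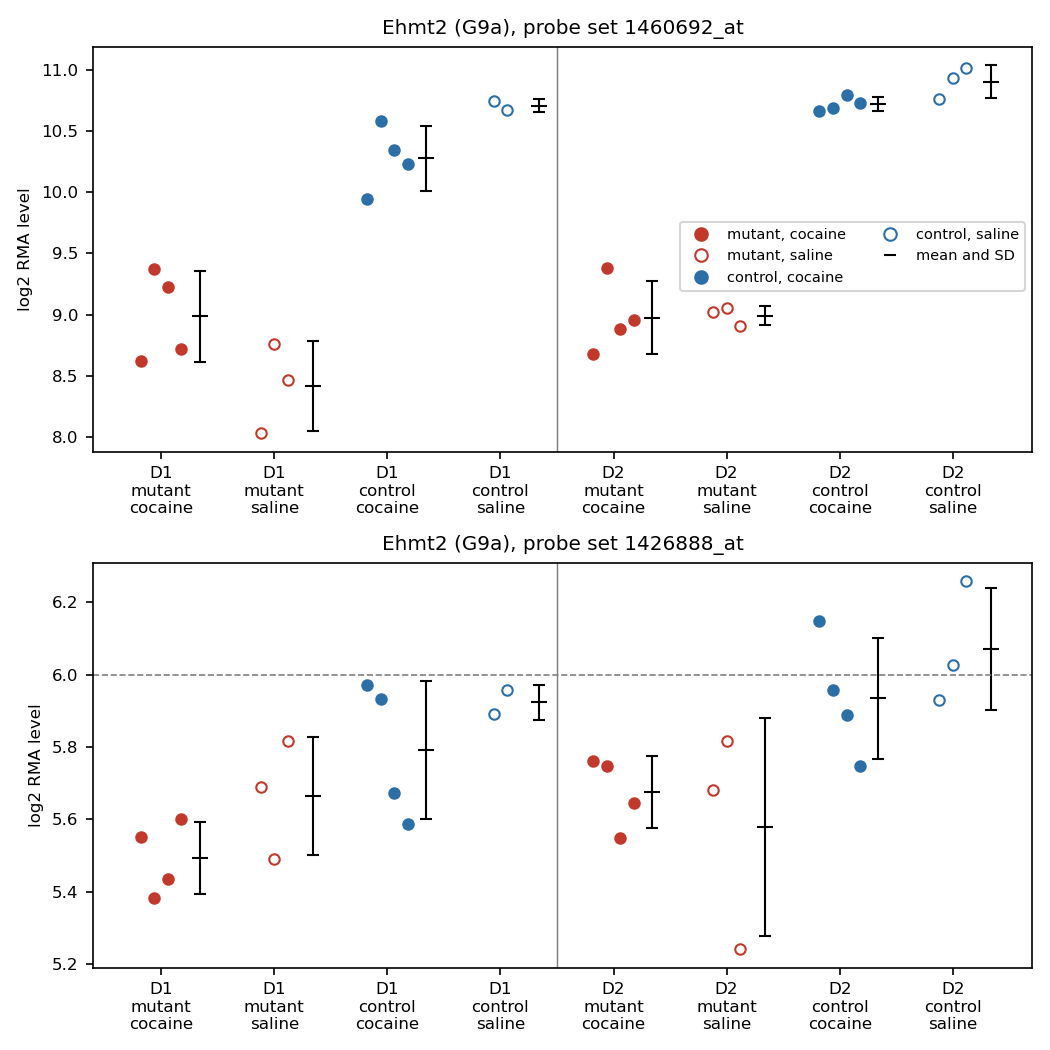
Log2 RMA level of the Ehmt2 probe sets 1460692_at (top) and 1426888_at (bottom) in each array (circles, filled for cocaine and open for saline) of the 8 groups, red for mutants and blue for controls, with the group mean and SD in black; the dashed line marks the level of 6 used as the filter. At 1460692_at every mutant lies below every control of its neuron type, while 1426888_at lies near or below 6 in all arrays.

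The second Ehmt2 probe set, 1426888_at, is annotated to the same sequence record but was dim, and it exceeded 6 in 3 arrays, all of them D2 controls. It entered the fit only through the group where it was high, so its differences are given as a description, with no test. It ranged between 5.38 and 5.82 in D1 mutants (median 5.55) and between 5.59 and 5.97 in D1 controls (median 5.91), and between 5.24 and 5.82 in D2 mutants (median 5.68) and between 5.75 and 6.26 in D2 controls (median 5.96). With both drugs together, and after cocaine, its mutants and controls overlapped in both neuron types. After saline they did not, with gaps of 0.07 in D1 (3 mutants, 2 controls) and 0.11 in D2 neurons (3 mutants, 3 controls). How many of all probe sets separate in the same arrays was not counted, so nothing is drawn from these gaps. The difference in level was -0.28 in D1 neurons and -0.38 in D2 neurons. Over the 27 arrays the levels of both Ehmt2 probe sets correlated at Pearson r = 0.665, and their deviations from the 8 group means at -0.121, as a description of arrays that share genotype, neuron type and platform.

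Ehmt1, whose protein GLP is the partner enzyme of G9a, did not pass in mutants of either neuron type. Probe set 1454776_at read 8.76, 8.999, 9.04 and 9.58 in D1 mutants given cocaine and 8.95, 8.69 and 8.71 in D1 mutants given saline, against 8.80, 8.91, 8.70 and 8.76 in D1 controls given cocaine and 9.72 and 9.64 in D1 controls given saline. In D2 neurons it read 8.78, 9.93, 9.56 and 9.71 in mutants given cocaine and 9.80, 9.79 and 9.56 in mutants given saline, against 9.71, 9.73, 9.70 and 9.81 in controls given cocaine and 10.40, 8.93 and 9.85 in controls given saline. Mutants and controls overlapped in both neuron types, and the 3 D2 controls given saline held the highest level of all 27 arrays beside 1 of the lowest in D2 neurons. The mean difference was -0.30 in D1 neurons (95% interval -0.68 to 0.08, limma adjusted p = 0.624) and -0.12 in D2 neurons (95% interval -0.48 to 0.23, limma adjusted p = 0.721). The D2 value was -0.324 without D2 control saline replicate 2, -0.198 without D2 mutant cocaine replicate 2, -0.006 without D2 mutant cocaine replicate 1 and 0.043 without D2 control saline replicate 1. None of these fits called it. These intervals leave room for a fall or a small rise of Ehmt1 and do not show that it stayed level.

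Within D1 neurons given saline, the 3 mutants (8.69 to 8.95) lay below both controls (9.64 and 9.72), a difference of -0.90 (SE 0.29, limma adjusted p = 0.163). Given cocaine the D1 groups overlapped, with 0.30 (SE 0.23, limma adjusted p = 0.562). The saline difference rests on 2 control arrays, which also had the smallest 3' minus 5' difference of the 13 D1 arrays. This measure, averaged over control probe sets for Actb and Gapdh, is larger where RNA is more degraded or less fully copied. It was 2.01 and 1.96 in these arrays against 2.16 to 2.90 in the other D1 arrays. With this measure as a covariate the saline difference was -0.79 (limma adjusted p = 0.42). Over the 27 arrays, which share the 8 groups, Ehmt1 levels correlated with the measure at r = -0.446 and their deviations from the group means at -0.162.

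Wiz, which encodes the zinc finger partner, differed little between genotypes. Probe set 1418202_a_at read 6.84, 6.80, 6.96 and 6.93 in D1 mutants given cocaine and 6.75, 6.76 and 6.90 in D1 mutants given saline, against 6.96, 6.84, 6.75 and 6.69 in D1 controls given cocaine and 6.82 and 6.79 in D1 controls given saline. In D2 neurons it read 6.85, 7.12, 6.89 and 7.04 in mutants given cocaine and 6.89, 7.04 and 6.80 in mutants given saline, against 6.79, 6.99, 6.88 and 6.90 in controls given cocaine and 7.01, 7.10 and 7.04 in controls given saline. Mutants and controls given the same drug overlapped in both neuron types, and all 27 arrays lay within 6.69 and 7.12. The mutant minus control difference was 0.04 in D1 neurons (95% interval -0.10 to 0.17, limma adjusted p = 0.918) and -0.03 in D2 neurons (95% interval -0.15 to 0.10, limma adjusted p = 0.828). These were the narrowest intervals of the member probe sets above 6 in all arrays. The other Wiz probe set, 1430330_at, lay between 3.81 and 4.42 in every array, where RMA values mostly hold background, and was not tested.

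**Figure D2:**
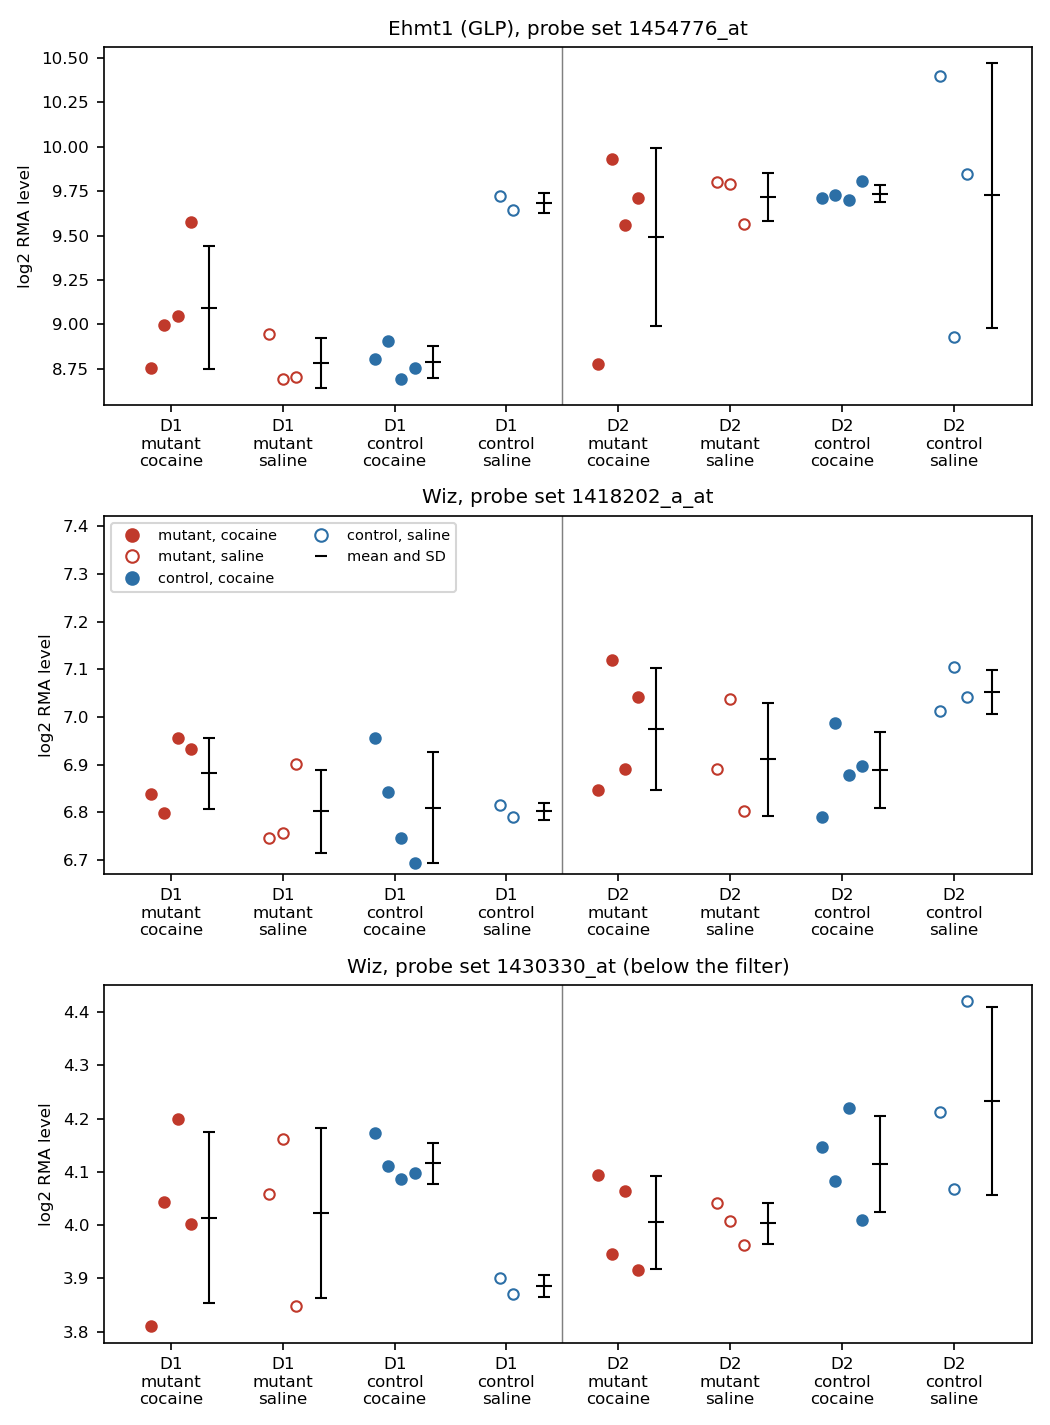
Log2 RMA level of Ehmt1 (1454776_at, top) and Wiz (1418202_a_at, middle, and 1430330_at, bottom) in each array of the 8 groups (filled circles cocaine, open circles saline, red mutants, blue controls), with the group mean and SD in black. Mutants and controls of a neuron type overlap in every panel, while most D1 arrays of Ehmt1 lie below most D2 arrays.

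The groups were also set in order of their mean level. For Ehmt2 at 1460692_at the 4 control groups stood above the 4 mutant groups: D2 control saline (10.90 ± 0.13, SD, n = 3), D2 control cocaine (10.72 ± 0.06, n = 4), D1 control saline (10.70 ± 0.05, n = 2) and D1 control cocaine (10.28 ± 0.26, n = 4), then D2 mutant saline (8.99 ± 0.08, n = 3), D1 mutant cocaine (8.99 ± 0.37, n = 4), D2 mutant cocaine (8.98 ± 0.30, n = 4) and D1 mutant saline (8.42 ± 0.36, n = 3). Neighbours in this order overlapped except D1 control saline with D1 control cocaine and D1 control cocaine with D2 mutant saline. For Ehmt1 the D2 groups averaged between 9.49 and 9.74 and the D1 groups between 8.78 and 9.09, with the exception of D1 control saline at 9.68, and every group overlapped the next. For Wiz the means ran only between 6.80 and 7.05, and every group overlapped the next.

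The comparison of neuron types showed lower Ehmt1 in D1 than in D2 neurons, and this passed in mutants. Here and for the gene lists below, neuron type also stands for the tag line and, in mutants, for the Cre line. These cannot be told apart. Ehmt1 averaged 8.96 ± 0.31 in D1 mutants and 9.59 ± 0.38 in D2 mutants (SD, n = 7 each), a difference of -0.67 (SE 0.17, 1.59-fold lower, limma adjusted p = 0.00361), and the call held without each of the 27 arrays. In controls it averaged 9.09 ± 0.47 in D1 (SD, n = 6) and 9.73 ± 0.43 in D2 neurons (SD, n = 7), a difference of -0.49 (SE 0.19, limma adjusted p = 0.0528). This control difference lay in the cocaine arrays, with means of 8.791 in D1 and 9.736 in D2 neurons (n = 4 each). After saline the control means were close, at 9.683 in D1 (n = 2) and 9.725 in D2 neurons (n = 3). Neuron types were not tested within a drug. The control difference moved with single arrays: it was -0.69 without D2 control saline replicate 2, the low array of that group (limma adjusted p = 0.0025). It was -0.325 without replicate 1, the high array of the same group (limma adjusted p = 0.177). Of the 3 probe sets above 6 in all arrays 1 passed in mutants, where 37.9% of all probe sets passed, and 0 passed in controls, where 25.1% did. All 3 had lower means in D1 than in D2 neurons in both genotypes. For Ehmt2 at 1460692_at the difference in level was -0.28 in mutants (SE 0.13, limma adjusted p = 0.0848) and -0.32 in controls (SE 0.14, limma adjusted p = 0.0881). For Wiz at 1418202_a_at it was -0.10 in mutants (SE 0.06, limma adjusted p = 0.193) and -0.16 in controls (SE 0.06, limma adjusted p = 0.0606). The median difference over all 22530 probe sets was -0.03 in either genotype.

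Repeated cocaine gave no call for any member. In D1 neurons the difference in Ehmt2 level after cocaine was 0.57 in mutants (SE 0.18, limma adjusted p = 0.253) and -0.43 in controls (SE 0.20, limma adjusted p = 0.402), and in D2 neurons it was -0.02 in mutants and -0.18 in controls (limma adjusted p = 0.999 and 0.885). For Ehmt1 it was 0.31 in D1 mutants (SE 0.24, limma adjusted p = 0.692) and -0.89 in D1 controls (SE 0.28, limma adjusted p = 0.198), and -0.22 in D2 mutants and 0.01 in D2 controls (limma adjusted p = 0.995 and 0.998). The 4 Ehmt1 arrays of D1 controls given cocaine lay below both arrays given saline. For Wiz at 1418202_a_at the 4 differences ran between -0.16 and 0.08. No member probe set above 6 in all arrays passed in any of these comparisons. Of all probe sets 0.0355% passed in D1 mutants, in D1 controls and in D2 controls. In D2 mutants 0% passed, and 1137 of 22530 had an unadjusted limma p under 0.05. With all 4 genotype and neuron type classes weighted equally, no such member and 0.488% of all probe sets passed.

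In D1 neurons the cocaine effect on Ehmt2 in mutants minus that in controls was 1.00 (95% interval 0.43 to 1.56, unadjusted p = 0.00126, limma adjusted p = 0.221), and for Ehmt1 it was 1.20 (95% interval 0.44 to 1.97, unadjusted p = 0.00334, limma adjusted p = 0.241). They stood at places 127 and 308 by p-value among all tested probe sets, of which 2674 had an unadjusted p under 0.05 and 0% passed after adjustment, so neither difference passed. Both contrasts use the same 2 D1 control saline arrays, those with the smallest 3' minus 5' difference of the D1 arrays. With that measure as a covariate the values were 0.82 for Ehmt2 and 1.04 for Ehmt1 (limma adjusted p = 0.741 and 0.79). In D2 neurons the same difference was 0.17 for Ehmt2 and -0.24 for Ehmt1 (limma adjusted p = 0.995 for each), where 1118 probe sets had an unadjusted p under 0.05 and 0% passed.

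**Figure D3:**
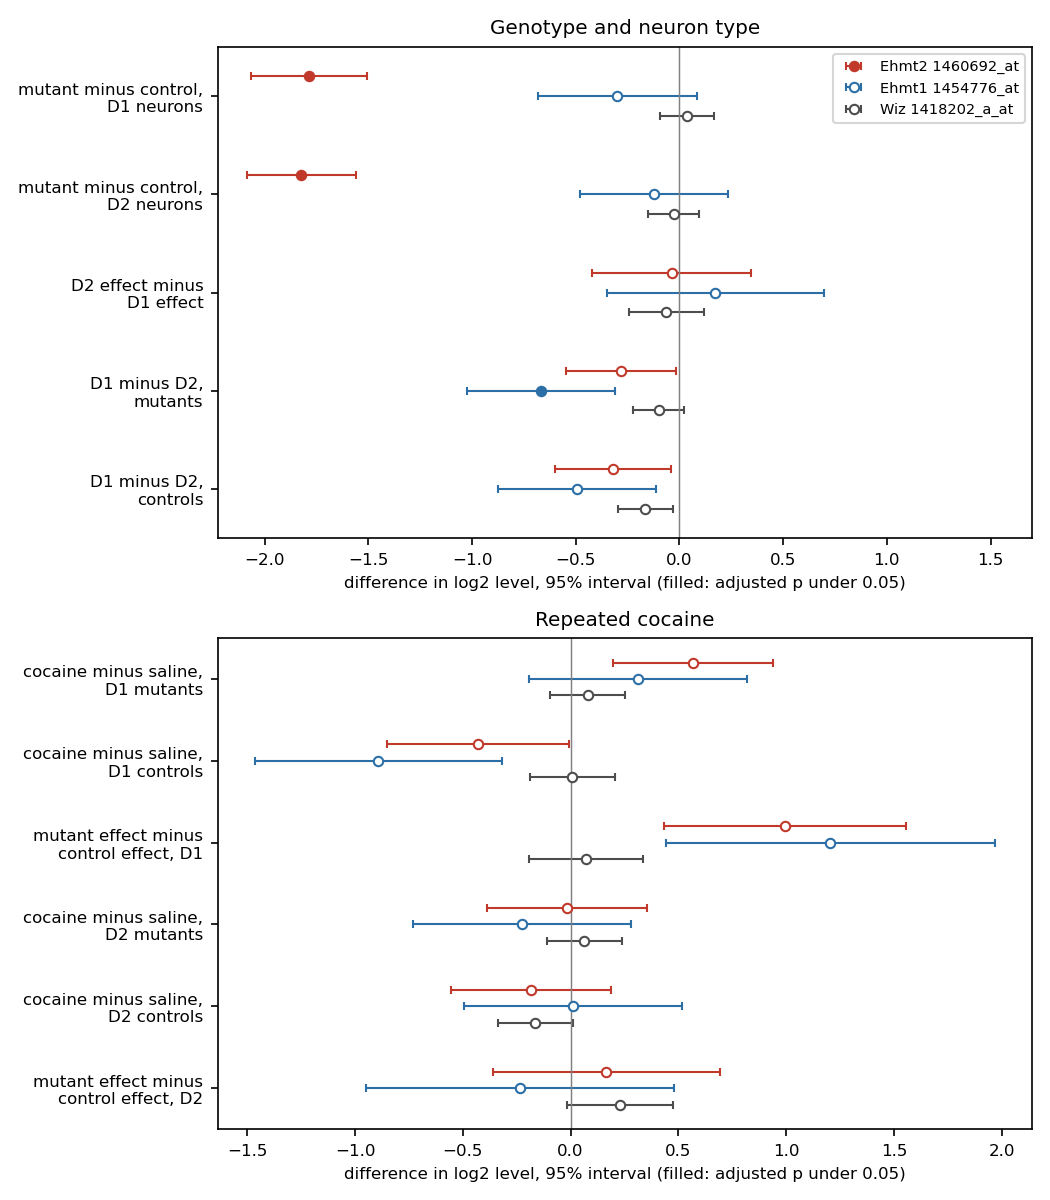
Differences in log2 level with 95% intervals for the 3 member probe sets above 6 in all arrays, for genotype and neuron type (top) and for repeated cocaine (bottom), with filled circles where the limma adjusted p was under 0.05. Filled are Ehmt2 for mutant minus control in D1 and in D2 neurons and Ehmt1 for D1 minus D2 in mutants; no cocaine difference is filled.

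Other proteins of the same chemistry were followed through 3 gene lists. Of 21 genes for binding partners of G9a or GLP, 18 had a tested probe set, and 1 fell and 17 did not pass in mutants of each neuron type, where 0.857% of all probe sets in D1 and 2.89% in D2 neurons fell. Each list gene stands by 1 probe set. In a fit with 1 probe set for each gene, 507 of 12017 passed in D1 neurons, of which 134 fell. In D2 neurons 1470 of 12017 passed, of which 459 fell. The median difference of the binding partners was -0.08 in D1 and 0.06 in D2 neurons, against 0.01 over all probe sets in each. Hdac1, a histone deacetylase, fell in D1 mutants, with 7.06 in D1 mutants and 7.57 in D1 controls (-0.52, limma adjusted p = 0.00118), and had 7.46 in D2 mutants and 7.69 in D2 controls (-0.21, limma adjusted p = 0.163). Cbx5, which encodes the methyl-H3K9 reader HP1 alpha, fell in D2 mutants, with 10.03 in D2 mutants and 10.32 in D2 controls (-0.30, limma adjusted p = 0.00153), and had a difference of -0.13 in D1 neurons (limma adjusted p = 0.476). Of the others with the smallest p, Atf7ip, a partner of the methyltransferase SETDB1, differed by 0.44 in D1 and 0.36 in D2 neurons (limma adjusted p = 0.051 and 0.053), and Cdyl, a chromodomain corepressor, by -0.23 in D1 neurons (limma adjusted p = 0.243). The corepressor gene Ctbp2 differed by -0.27 in D1 and 0.24 in D2 neurons, neither of which passed (limma adjusted p = 0.108 and 0.0669), while the D2 effect minus the D1 effect did pass (0.51, limma adjusted p = 0.04). Its probe set was dim and lay about the filter level of 6, which limits this call. It averaged 5.84 in D1 mutants, 6.12 in D1 controls, 6.21 in D2 mutants and 5.97 in D2 controls. The demethylase gene Kdm1a had 0.24 in D2 neurons (limma adjusted p = 0.0743). Zfp217, Dnmt3b and Uhrf1 did not reach the filter.

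Of 7 other H3K9 methyltransferase genes 5 were tested and 0 passed in mutants of either neuron type by limma, where 3.04% of all probe sets in D1 and 9.19% in D2 neurons did. The smallest p belonged to Suv39h2 in D1 neurons (0.17, limma adjusted p = 0.616) and to Setdb2 in D2 neurons (-0.16, limma adjusted p = 0.185), of which only the second had an unadjusted p under 0.05, at 0.0363. Prdm16, Setdb1 and Prdm2 had differences between -0.05 and 0.17 where they came next by p, and Suv39h1 and Mecom were not tested. Of 10 H3K9 demethylase genes 9 were tested, 0 passed in D1 mutants, and in D2 mutants 1 rose, 1 fell and 7 did not pass. Jmjd1c, a JmjC protein related to Kdm3a and Kdm3b, rose in D2 mutants, with 10.58 in D2 mutants and 9.58 in D2 controls (1.02, SE 0.11, limma adjusted p = 5.25e-07), against 9.29 in D1 mutants and 9.28 in D1 controls (0.02, limma adjusted p = 0.985). The difference between these effects passed as well (1.00, SE 0.16, limma adjusted p = 0.00154). Kdm3b fell in D2 mutants (-0.40, limma adjusted p = 0.028) and differed by -0.32 in D1 neurons (limma adjusted p = 0.239). The next smallest p in D2 neurons belonged to Phf2 (-0.23, limma adjusted p = 0.0638) and Kdm4a (-0.51, limma adjusted p = 0.0902), and in D1 neurons to Kdm3a (-0.19, limma adjusted p = 0.212), Phf2 (0.155, limma adjusted p = 0.531) and Kdm4b (-0.10, limma adjusted p = 0.664). In D2 neurons these values stand beside the shift of the summed cholinergic and oligodendrocyte levels, whose part in them was not tested.

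Between neuron types in controls, Cdyl was higher in D1 than in D2 neurons (0.31, limma adjusted p = 0.0108) and Ctbp1 lower (-0.21, limma adjusted p = 0.0496), the only 2 of 18 binding partners to pass. Setdb2 was lower in D1 neurons (-0.30, limma adjusted p = 0.00595), 1 of 5 other methyltransferases, and 0 of 9 demethylases passed, where the smallest p belonged to Kdm4a (0.50, unadjusted p = 0.018, limma adjusted p = 0.0649). In this comparison 25.1% of all probe sets passed, and 3480 of 12017 in a fit with 1 probe set for each gene. Next by p among the binding partners were Rcor1 (0.20, limma adjusted p = 0.0808) and Zeb1 (-0.11, limma adjusted p = 0.172). Among the methyltransferases they were Prdm16 (0.36, limma adjusted p = 0.0914) and Prdm2 (0.225, limma adjusted p = 0.132), and among the demethylases they were Jmjd1c (-0.29, limma adjusted p = 0.0783) and Kdm3a (0.155, limma adjusted p = 0.115). In mutants 37.9% of all probe sets passed, and 5091 of 12017 in a fit with 1 probe set for each gene. There 2 of 18 binding partners were higher and 5 lower in D1 than in D2 neurons. Of the methyltransferases 0 were higher and 1 lower, and of the demethylases 3 were higher and 1 lower.

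**Figure D4:**
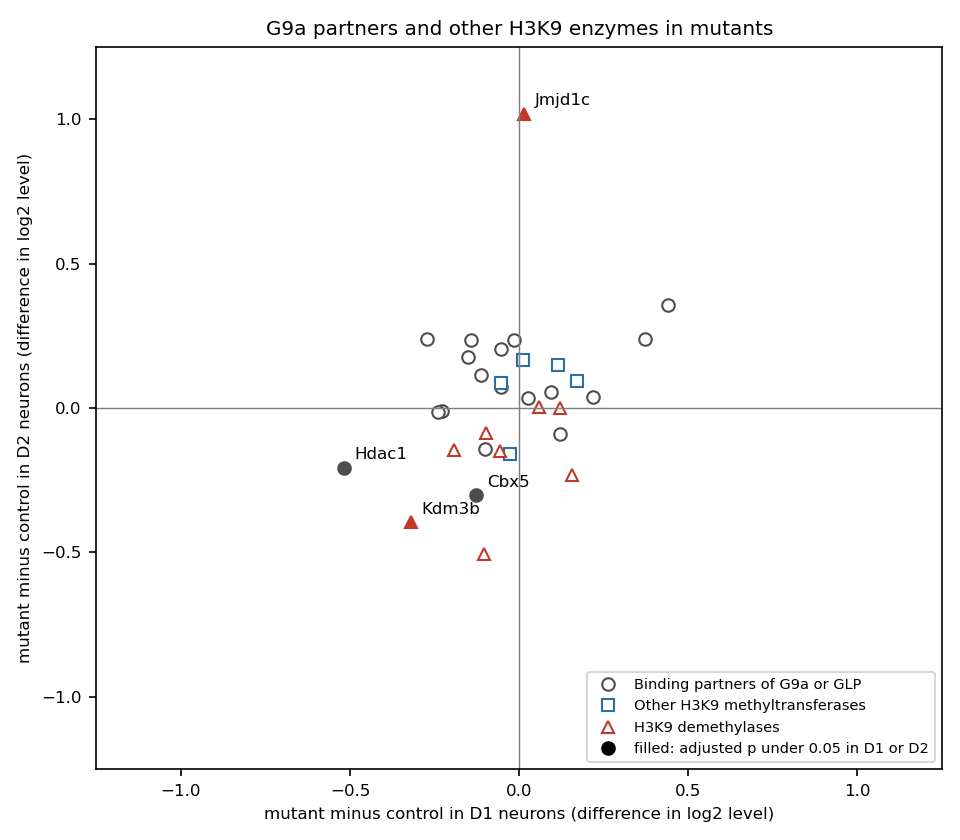
Mutant minus control difference in log2 level in D1 neurons (horizontal) and D2 neurons (vertical) for the 18 tested binding partners (circles), 5 other H3K9 methyltransferases (squares) and 9 H3K9 demethylases (triangles), each gene by 1 probe set, filled and named where the limma adjusted p was under 0.05 in D1 or D2 neurons. Jmjd1c lies near 0 in D1 and at 1.02 in D2 neurons; Hdac1 lies at -0.52 in D1 and -0.21 in D2 neurons.

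The 10 nearest tested genes around each member, 5 on each side by RefSeq gene order, were examined in the same fit. Around Ehmt2, 1110038B12Rik, which lies 2 places after it, fell in both neuron types (-0.48 in D1 and -0.66 in D2 neurons, limma adjusted p = 0.00566 and 3.07e-05), and the heat shock gene Hspa1a fell in D2 neurons (-0.31, limma adjusted p = 0.0321) and differed by -0.35 in D1 neurons (limma adjusted p = 0.0507). Hspa1a has a near-identical neighbour, Hspa1b (-0.37 in D1 and -0.23 in D2 neurons, limma adjusted p = 0.327 and 0.369), and the probe sets of the pair may share RNA. The other 8 did not pass in either neuron type, and the median of the 10 was -0.02 in D1 and -0.04 in D2 neurons. Around Ehmt1, Psd4, an exchange factor for small GTPases, rose in both neuron types (0.24 in D1 and 0.23 in D2 neurons, limma adjusted p = 0.0439 and 0.0137). Around Wiz, the zinc finger gene Zfp811 rose in both (0.57 in D1 and 0.90 in D2 neurons, limma adjusted p = 0.00182 and 8.8e-07), and Zfp472 rose in D1 neurons (0.36, limma adjusted p = 0.0164). With 1 or 2 of 10 in each comparison, these counts stand against 3.04% of all probe sets in D1 and 9.19% in D2 neurons. In a fit with 1 probe set for each gene, 507 of 12017 passed in D1 and 1470 of 12017 in D2 neurons.

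Genes whose levels followed a member over the 27 arrays were ranked by Pearson r among 11447 genes, as a description of arrays that share the 8 groups. Nearest to Ehmt2 at 1460692_at were Reep6 (r = 0.955), Klc3 (0.926), Gamt (0.921), Fbln5 (0.917) and Rgs14 (0.913), and farthest were Dach2 (-0.949), Bank1 (-0.944) and Plce1 (-0.944). Dach2, a transcriptional cofactor of the Dachshund family, averaged 10.84 in D1 mutants and 4.74 in D1 controls and 10.48 in D2 mutants and 4.68 in D2 controls. Reep6, an endoplasmic reticulum protein of the receptor expression enhancing family, averaged 5.08 in D1 mutants and 6.51 in D1 controls and 5.42 in D2 mutants and 6.83 in D2 controls. Taken as deviations from the 8 group means, which removes genotype, neuron type and drug, the gene nearest to Ehmt2 was Tomm40 (0.775), a subunit of the mitochondrial import pore, followed by Naa35 (0.764) and Usb1 (0.761).

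Nearest to Ehmt1 in level were Plxdc2 (0.807), Usp21 (0.799), Slitrk3 (0.799), Ogdh (0.795) and Igf2r (0.784), and farthest was Klf7 (-0.781). Ogdh, a subunit of the oxoglutarate dehydrogenase complex, averaged 11.01 in D1 mutants and 11.59 in D2 mutants, and 11.00 in D1 controls and 11.53 in D2 controls. As deviations the nearest were Cbx7 (0.727), a Polycomb chromodomain gene, and Plekha8 (0.719), and Plxdc2 was the only 1 of the 5 also among the nearest in level (0.705). Nearest to Wiz in level were Syndig1l (0.739), Ccdc97 (0.737) and Hcn2 (0.737), a pacemaker channel gene, and farthest was Cbln4 (-0.73). The members did not rank among each other's nearest genes: over the 27 arrays r was 0.338 between Ehmt2 and Ehmt1, 0.135 between Ehmt2 and Wiz and 0.466 between Ehmt1 and Wiz, and 0.10, 0.197 and 0.268 as deviations from the group means.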

How the data were processed

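The authors deposited 1 table of log2 values for 45101 probe sets on 27 arrays, which per the submitters' processing notes came from RMA, run in Affymetrix Expression Console 1.1; the series' design text also names another Affymetrix program with global scaling. RMA background-corrects, quantile-normalizes and summarises probes, which compresses differences of dim probe sets. The probe position and genome build were not given in the sources used here. Probe sets were named by a 2016 array annotation: 34945 had 1 symbol, 932 several and 9160 none, and 64 controls were left out. Arrays were grouped by their titles.

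Probe sets with a level above 6 in at least 3 arrays (22530) were fitted together with limma 3.58.1 under R 4.3.3, each of the 8 groups having its own mean; contrasts weight both drugs or genotypes equally, and p-values were adjusted by Benjamini-Hochberg over all 22530 at 0.05. Gene lists, likeness and neighbours used each gene's probe set with the highest mean. All probe sets of the members were named, with the list genes of smallest p and the neighbours that passed. The members, lists and alternatives were chosen with earlier results of these data known. The fit was tested on simulated data. Replicate numbers of the titles were checked for pairing. Same-numbered arrays within a neuron type had a median correlation of deviations of -0.01 (-0.414 to 0.506, with 13 of 35 over 0.1). Others had -0.002 (-0.511 to 0.481). Same-numbered arrays were not treated as pairs in the main fit. Correlations over all tested probe sets do not show whether a single probe set follows the number. No 2 arrays held the same values.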

Additional observations from a re-analysis of the deposited data

How the results depend on the processing

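The fall of Ehmt2 at 1460692_at was called in all 27 fits that left out 1 array and in all 11 other settings, with differences of -1.81 to -1.62 in D1 and -1.86 to -1.64 in D2 neurons in those 11 settings. Ehmt1 in mutants, D1 minus D2, was called in all 27 and in 10 of 10 others. No value of the members changed sign while called. The comparison of neuron types in controls sat near the threshold and crossed it in some settings, and the cause was not tested. For Ehmt1 it passed with 1 probe set for each gene (-0.493), with D2 mutant cocaine replicate 4 counted as a control (-0.491), with array weights (-0.443) and with median centring (-0.482), and in 4 of 27 fits without 1 array, which gave -0.693 to -0.325 over all 27. Those 4 were the fits without D1 mutant cocaine replicate 4, D2 control saline replicate 2, or D2 mutant cocaine replicate 1 or 2. For Ehmt2 it passed with array weights (-0.354) and with the replicate number as a block (-0.311). With this block Ehmt2 also passed in mutants (-0.282), and no other member call changed. The block lowered the SE of the control difference at 1460692_at from 0.136 to 0.108. At this probe set replicate 1 was the lowest array of every group except D1 control saline and D2 mutant saline. By the labels same-numbered arrays share only a number, and what lies behind this was not tested. Ehmt2 in mutants, D1 minus D2, also passed without D1 mutant cocaine replicate 2, D1 mutant saline replicate 2 or D2 mutant cocaine replicate 1 (-0.367 to -0.185 over the 27 fits). For Wiz at 1418202_a_at it passed with replicate 4 of the D2 mutants given cocaine as a control (-0.18), with array weights (-0.145) and without D1 control cocaine replicate 1 or D2 control cocaine replicate 1 (-0.189 to -0.145 over the 27 fits). Array weights also called Wiz for D1 minus D2 in mutants (-0.143) and Ehmt1 in D1 controls for cocaine (-0.86) and in D1 neurons given saline for genotype (-0.95). The last also passed in the fit of D1 arrays alone (-0.90). The genotype difference of Ehmt1 in D2 neurons, not called in any setting, ran between -0.324 and 0.043 over the 27 fits without 1 array. For the dim 1426888_at, which is given no test, only ranges of the genotype difference are given. Over 10 other settings it ran between -0.391 and -0.255 in D1 and between -0.411 and -0.339 in D2 neurons. Over the 27 fits without 1 array it ran between -0.316 and -0.235 in D1 and between -0.436 and -0.291 in D2 neurons.

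The number of probe sets called in D1 mutants was 685, with 1537 under array weights and 432 without D1 control saline replicate 1. In D2 mutants it was 2071, with 3386 under array weights and 1162 with D2 mutant cocaine replicate 4 as a control. For the D2 minus D1 effect it was 160, with 503 and 23 in these settings and 77 or 98 without D1 control saline replicate 1 or 2. For D1 minus D2 it was 5660 in controls and 8539 in mutants, with 3480 and 5091 when 1 probe set stood for each gene, which tests fewer, and 3513 in controls without D1 control saline replicate 2. The share of calls that were higher in D1 controls than in D2 controls was 39.7%, with 50.6% after cyclic loess, and between D1 and D2 mutants it was 39.5%, with 51.0% after cyclic loess. Among the calls in D2 mutants against controls the share that rose was 68.6%, with 56.5% after median centring.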
